A study of Mus musculus with 6 samples.

Results

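The genes described here are the fibrillins, the latent TGF-beta binding proteins (LTBPs) and the small microfibril proteins, 9 of the 55421 genes in the count table. They were matched by symbol and comprise *Fbn1*, *Fbn2*, *Ltbp1*, *Ltbp2*, *Ltbp3*, *Ltbp4*, *Mfap2*, *Mfap4* and *Mfap5*. The list was drawn up with the difference between *Yap* cKO and control retinas already known, so for these genes the values of that comparison, and which of them met the criteria for differential expression, are a description and not independent evidence.

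Fibrillins polymerise into microfibrils, thin extracellular filaments that scaffold elastic fibres and, in the eye, form the ciliary zonule that holds the lens. The ciliary body makes the zonule, largely through its inner, non-pigmented epithelium (NPE). LTBPs attach to microfibrils, and several of them keep TGF-beta in a latent store in the matrix, while the microfibril-associated glycoproteins bind fibrillin directly. In people, mutations of the fibrillin-1 gene cause Marfan syndrome, and mutations of the LTBP-2 gene cause congenital glaucoma and displaced lenses.

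Transcripts were measured in retinas of 2-month-old mice. Control retinas came from *Yap* flox/flox animals (n = 3, named YR612, YR613 and YR615). Those of the *Yap* cKO group came from *Yap* flox/flox animals that also carried *Rax-CreERT2* (n = 3, YR711, YR713 and YR714). Both groups received 4-hydroxytamoxifen at postnatal days 10 and 14. Controls carried no Cre, so the presence of Cre and the loss of *Yap* cannot be told apart. The *Rax* promoter drives Cre in Müller glia and in the ciliary NPE. The lens was removed and the retina was cut away below the ora serrata, the border with the ciliary body.

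Total counts ranged from 24261799 to 35067068 per retina. *Yap1*, the targeted gene, was at 9.48, 9.52 and 9.82 TPM (counts scaled for exonic length and depth) in the controls and at 3.99, 3.76 and 3.94 TPM in *Yap* cKO retinas, so every library matched its label. Müller glia, rod and retinal ganglion cell markers were abundant in all 6 retinas, as in a retina. Defining lens genes were low, with a summed TPM over 6 genes from 0.939 to 4.21 in 5 retinas and 18.2 in control YR615.

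RefSeq (build GRCm38.p6) gave 10 promoter windows of 300 bases for 6 of the 9 genes, and no window for *Fbn2*, *Mfap4* and *Mfap5*. A core TEAD motif (GGAATG, or CATTCC on the other strand), the DNA element read by the TEAD partners of YAP, was present in 1 of these 10 windows and in 14.7% of all 32817 windows. An AP-1 motif (TGANTCA, which is its own reverse complement) was present in 1 of the 10 and in 7.81% of all windows. A TATA box (TATAAA, or TTTATA on the other strand) was present in 0 of the 10 and in 13.6% of all windows. No matches of different motifs overlapped in these 10 windows, and a match or its absence says nothing of binding. Stretches upstream of the deposited gene start are shown from 5′ to 3′, with motif matches in capitals, for *Ltbp2*, whose level differed most, and for *Ltbp3* and *Mfap2*, whose groups overlapped.
Ltbp2, chr12:84876533-84876741, minus strand: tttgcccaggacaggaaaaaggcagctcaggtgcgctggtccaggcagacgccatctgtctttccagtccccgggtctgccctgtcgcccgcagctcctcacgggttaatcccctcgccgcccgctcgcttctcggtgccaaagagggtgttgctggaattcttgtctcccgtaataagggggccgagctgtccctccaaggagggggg
Ltbp3, chr19:5740650-5740903, plus strand: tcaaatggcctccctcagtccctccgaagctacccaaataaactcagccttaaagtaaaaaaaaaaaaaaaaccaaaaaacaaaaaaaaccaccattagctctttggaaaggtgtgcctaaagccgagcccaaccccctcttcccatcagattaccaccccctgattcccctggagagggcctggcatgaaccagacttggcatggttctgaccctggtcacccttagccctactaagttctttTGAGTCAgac
Mfap2, chr4:141010174-141010417, plus strand: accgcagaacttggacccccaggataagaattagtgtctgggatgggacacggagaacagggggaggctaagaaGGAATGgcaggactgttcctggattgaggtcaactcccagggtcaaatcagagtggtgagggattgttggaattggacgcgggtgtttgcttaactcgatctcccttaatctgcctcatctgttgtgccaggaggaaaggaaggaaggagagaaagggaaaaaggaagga
The TEAD match of *Mfap2* began 170 bases before the gene, the AP-1 match lay just before the start of *Ltbp3*, and the 209 bases of *Ltbp2* held neither. The G and C content of this *Ltbp2* stretch was 63.2%, compared with 47.2% for *Ltbp3* and 51.2% for *Mfap2*. It was not particular to *Ltbp2*. The full 300-base windows held 61.0% for *Ltbp2*, 64.3 to 81.3% for *Ltbp4* and 52.0 and 68.0% for *Mfap2*. The median of all windows was 52.7% (5th to 95th percentile 36.3 to 73.7%). The *Ltbp2* gene is overlapped by *D030025P21Rik*, an antisense gene that had 1 count over the 6 retinas. Fragments were counted by strand.

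In control retinas the family spanned a wide range of expression. *Ltbp3* stood highest at 17.9 ± 1.25 TPM (mean ± SD, n = 3 for this and all group means), followed by *Mfap4* at 13.7 ± 2.81 TPM. *Mfap2* (9.15 ± 1.29 TPM), *Fbn1* (8.54 ± 1.30 TPM), *Ltbp4* (8.055 ± 1.35 TPM) and *Ltbp2* (6.87 ± 0.473 TPM) followed, and the ranges of neighbours in this order overlapped. *Ltbp1* (4.01 ± 0.258 TPM) lay below all of these, and *Fbn2* (0.605 ± 0.0799 TPM) and *Mfap5* (0.348 ± 0.107 TPM) were the lowest. The ranges of *Ltbp3* and *Mfap4*, of *Mfap4* and *Mfap2*, and of each gene from *Ltbp2* downwards and its neighbour did not overlap. In *Yap* cKO retinas *Ltbp3* was again first, *Mfap2* and *Ltbp4* came next, *Mfap4* moved from 2nd to 5th place, and *Ltbp2* went from 6th to 7th, below *Ltbp1*.

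**Figure D1:**
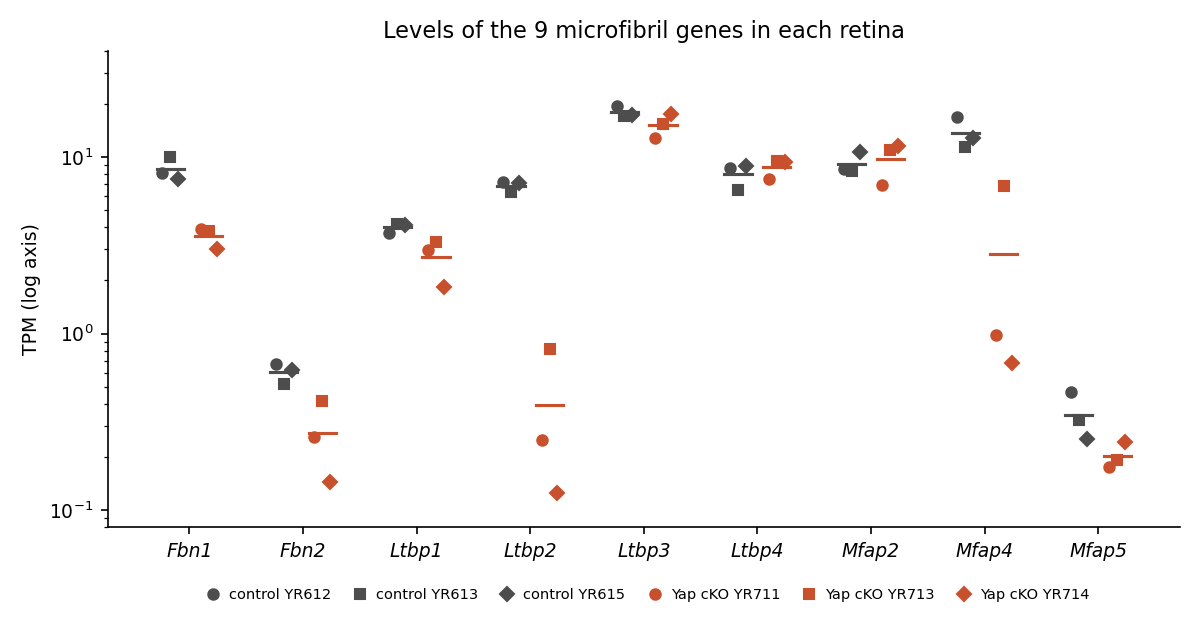
TPM (log axis) of each of the 9 genes in the 3 control and 3 *Yap* cKO retinas. Points are retinas and horizontal lines are group means. The *Ltbp2* points of the groups lie far apart, *Fbn1* points form 2 tight sets, and *Mfap4* in *Yap* cKO YR713 (6.82 TPM) lies well above the other *Yap* cKO retinas.

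Of the 9 genes, 8 passed the filter on low counts, and *Mfap5* did not. A gene was called differentially expressed at an adjusted p of at most 0.05 (edgeR's quasi-likelihood test, Benjamini-Hochberg adjustment), a difference of 1.5-fold or more and a mean TPM of 5 or more in either group. By these criteria 2 of the 8, *Fbn1* and *Ltbp2*, were called, both lower in *Yap* cKO, where 0.585% of the 16575 genes tested were called lower. All 3 *Yap* cKO retinas lay below all 3 control retinas for 5 of the 8 genes (and for *Mfap5*), which held for 9.04% of the genes tested. The median log2 fold change of the 8 genes was -0.89, and that of all genes tested was 0.0017. Since the list was chosen on this comparison, nothing is read from these counts. In whole retinas, fewer cells of a type and less RNA per cell cannot be told apart.

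Fibrillins are the backbone of the microfibril. *Fbn1* (ENSMUSG00000027204, chr2:125300594-125507993, minus strand, GRCm38, 12128 bases of exons) was at 8.11, 9.998 and 7.51 TPM in control retinas and at 3.90, 3.79 and 3.03 TPM in *Yap* cKO retinas. The groups did not overlap, and the *Yap* cKO retinas stayed close to each other. The log2 fold change was -1.31 ± 0.129 (SE), a level 2.48-fold lower. In percent of the control mean, *Fbn1* stood at 45.65, 44.4 and 35.5% in YR711, YR713 and YR714, where *Yap1* stood at 41.5, 39.15 and 41.0%. An antisense gene inside it, *Gm9913*, had 50 counts over all retinas.

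*Fbn2*, a fibrillin used mostly during development (ENSMUSG00000024598, chr18:58008623-58210487, minus strand, 13215 bases of exons), was scarce, with 47 to 63 counts per control retina and 13 to 48 per *Yap* cKO retina. Its levels were 0.677, 0.519 and 0.620 TPM in control and 0.261, 0.417 and 0.144 TPM in *Yap* cKO retinas. The groups did not overlap, with YR713 the nearest to the controls. The log2 fold change was -1.16 ± 0.316, and with a mean below 5 TPM in both groups *Fbn2* could not be called whatever its adjusted p. *Fbn1* transcripts outnumbered those of *Fbn2* from 11.99- to 19.3-fold in control and from 9.08- to 21.0-fold in *Yap* cKO retinas, so the ratio of these genes overlapped between the groups.

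Among the LTBPs, *Ltbp2* stood apart. LTBP-2 binds fibrillin-1 and helps to hold the zonule together, and it is the family member that does not bind latent TGF-beta. The gene (ENSMUSG00000002020, chr12:84783212-84876532, minus strand, 8184 bases of exons) received 388, 355 and 447 counts in control retinas and 13, 58 and 7 in *Yap* cKO retinas. This corresponds to 7.19, 6.33 and 7.11 TPM in control and to 0.249, 0.814 and 0.125 TPM in *Yap* cKO retinas. The control retinas were nearly alike, and the highest *Yap* cKO retina, YR713, still reached only 11.85% of the control mean. YR711 stood at 3.62% and YR714 at 1.82%. The log2 fold change was -4.08 ± 0.403, a level 16.9-fold lower, and it was -5.25 without YR713.

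*Ltbp1*, which tethers latent TGF-beta to fibrillin, was at 3.71, 4.19 and 4.13 TPM in control and at 2.99, 3.30 and 1.83 TPM in *Yap* cKO retinas (ENSMUSG00000001870, chr17:75005568-75392512, plus strand, 10691 bases of exons). The groups did not overlap, but the control YR612 and *Yap* cKO YR713 were close. The log2 fold change was -0.62 ± 0.184. With a mean below 5 TPM in both groups, *Ltbp1* could not be called whatever its adjusted p.

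*Ltbp3*, which also binds latent TGF-beta, was the most abundant member (ENSMUSG00000024940, chr19:5740904-5758532, plus strand, 9069 bases of exons). It was at 19.4, 17.2 and 17.2 TPM in control and at 12.8, 15.3 and 17.6 TPM in *Yap* cKO retinas. YR714 lay within the control range, and YR711 was the lowest. The log2 fold change of -0.29 ± 0.129 did not meet the criteria.

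*Ltbp4*, an LTBP that guides elastic fibre assembly with fibulin-5, was at 8.72, 6.50 and 8.94 TPM in control and at 7.56, 9.495 and 9.40 TPM in *Yap* cKO retinas (ENSMUSG00000040488, chr7:27305136-27337692, minus strand, 6463 bases of exons). The groups overlapped, and the log2 fold change was 0.072 ± 0.159. YR714 held the lowest level of *Ltbp1* and *Ltbp2* among *Yap* cKO retinas but the highest of *Ltbp3*, so the LTBPs did not move together within the group.

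The microfibril-associated proteins also differed from each other. *Mfap4* encodes a fibrinogen-domain protein found on elastic fibres and microfibrils (ENSMUSG00000042436, chr11:61485431-61488900, plus strand, 1922 bases of exons). It was at 16.9, 11.5 and 12.9 TPM in control and at 0.977, 6.82 and 0.685 TPM in *Yap* cKO retinas. The groups did not overlap, but YR713 kept 49.6% of the control mean, compared with 7.12% in YR711 and 4.99% in YR714. The log2 fold change was -2.25 ± 0.588 and *Mfap4* was not called. Without YR713 it was -4.09 and *Mfap4* was called, as it also was without YR714 (-1.81) or without the control YR613 (-2.38).

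*Mfap2*, which encodes the microfibril-associated glycoprotein MAGP-1, was at 8.51, 8.31 and 10.6 TPM in control and at 6.98, 10.9 and 11.5 TPM in *Yap* cKO retinas (ENSMUSG00000060572, chr4:141010418-141015984, plus strand, 1211 bases of exons). The groups overlapped on both sides, and the log2 fold change was 0.046 ± 0.215. *Mfap5*, which encodes the related MAGP-2, received 11, 8 and 7 counts in control and 4, 6 and 6 in *Yap* cKO retinas (ENSMUSG00000030116, chr6:122505845-122529290, plus strand, 3589 bases of exons). Its levels of 0.254 to 0.4645 TPM in control and 0.1745 to 0.245 TPM in *Yap* cKO retinas rest on too few fragments to show a difference.

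**Figure D2:**
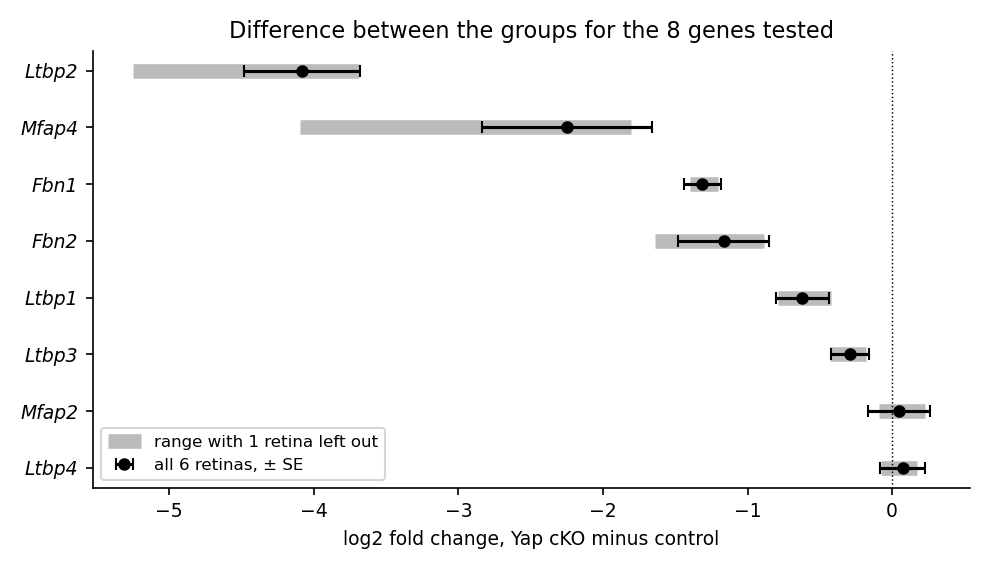
Log2 fold change (*Yap* cKO minus control) of the 8 genes tested. Points with bars are the estimate ± SE from all 6 retinas, and grey bands are the range when 1 retina was left out. The bands of *Ltbp2* (-5.25 to -3.69) and *Mfap4* (-4.09 to -1.81) are wide, that of *Fbn1* (-1.401 to -1.21) is narrow, and those of *Ltbp4* and *Mfap2* cross 0.

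The summed level of the 9 genes was 73.6, 64.8 and 69.3 TPM in control retinas, against 35.9, 51.0 and 44.5 TPM in *Yap* cKO. All *Yap* cKO sums were below all control sums. Fibrillins together made up 8.13 to 10.5 TPM in control and 3.17 to 4.21 TPM in *Yap* cKO retinas, and LTBPs 34.2 to 39.0 and 23.6 to 28.9 TPM. The makeup of the sum also differed. *Ltbp2* accounted for 9.76 to 10.3% of it in control and 0.281 to 1.59% in *Yap* cKO retinas, and *Mfap4* for 17.7 to 22.9% and 1.54 to 13.3%. *Ltbp3*, *Ltbp4* and *Mfap2* took up larger shares, *Ltbp3* for instance 24.85 to 26.5% in control and 30.0 to 39.5% in *Yap* cKO retinas. A share also rises when other members fall. In mean TPM, *Ltbp3* was at 84.9%, *Ltbp4* at 109.5% and *Mfap2* at 107.0% of control.

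**Figure D3:**
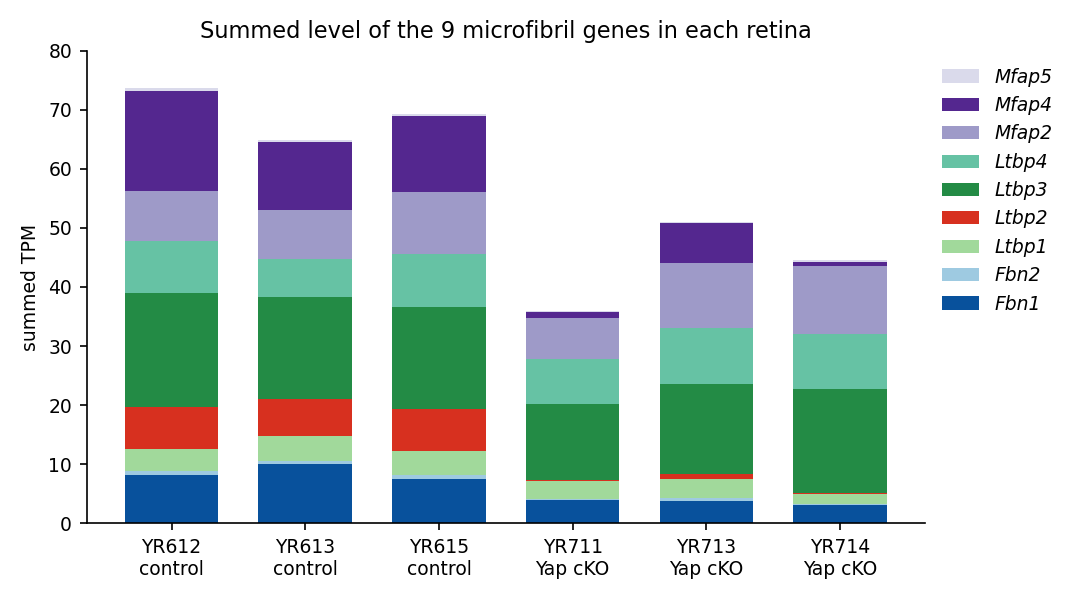
Stacked TPM of the 9 genes in each retina, with 1 colour per gene. Control bars reach 64.8 to 73.6 TPM and *Yap* cKO bars 35.9 to 51.0 TPM. The *Ltbp2* segment is thin in all *Yap* cKO bars, and the *Mfap4* segment is thin in YR711 and YR714.

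Other genes whose profile over the 6 retinas was most like that of a member were sought by the root mean square difference of centred log2 CPM (counts scaled to depth) among 16574 other genes. Profiles were not scaled to a common spread. The size of the difference between the groups, on which the list was chosen, therefore largely sets this order. For *Ltbp2* the nearest were *Slc26a4*, an anion exchanger (difference 0.358), *Best2*, a chloride channel of the NPE (0.431), *Optc*, which encodes opticin, a vitreous protein made by the NPE (0.442), *Fmod*, which encodes the collagen-binding fibromodulin (0.463), and *Fbln1*, a fibulin (0.478). *Slc26a4* was at 7.74 to 8.87 TPM in control and at 0.0941 to 0.444 TPM in *Yap* cKO retinas. *Fmod* was at 22.6 to 27.0 TPM in control and at 0.885 to 2.29 TPM in *Yap* cKO retinas. *Mfap4* was the 8th gene in this order and *Fbn1*, with a smaller difference between the groups, the 86th.

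For *Mfap4* the nearest were *Gstm2*, a glutathione transferase (0.279), *Fbln1* (0.385), *Optc* (0.558), *Matn2*, a matrix adaptor protein (0.623), and *Pmel*, a melanosome protein (0.651). *Gstm2* shared the intermediate level of YR713, with 2.61 to 4.51 TPM in control and 0.186, 1.44 and 0.174 TPM in YR711, YR713 and YR714. For *Fbn1* the nearest were *Cmbl* (0.114), the synaptotagmin gene *Syt15* (0.139), *Gm12963* (0.162), *Gdpd2* (0.173) and *Folh1*, a carboxypeptidase (0.176). None of these 5 was among the nearest genes of *Ltbp2* or *Mfap4*, whose differences between the groups were larger, so nothing is read from this. *Cmbl* was at 9.50 to 10.6 TPM in control and at 3.90 to 5.06 TPM in *Yap* cKO retinas.

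Markers of cell types, listed with earlier results of these data known, were set beside these levels. The 8 NPE markers include *Aqp1*, which other retinal cells also express and which went the other way, with 224 to 238.1 TPM in control and 262 to 316 TPM in *Yap* cKO retinas (log2 fold change 0.29 ± 0.0888, adjusted p = 0.126). With *Aqp1*, the list summed to 315 to 331 TPM in control and to 289.5, 366 and 327 TPM in YR711, YR713 and YR714, and the groups overlapped. The other 7 summed to 88.3 to 106 TPM in control and to 27.4, 49.9 and 30.85 TPM in YR711, YR713 and YR714. This sum without *Aqp1* was not planned, and *Optc* was its largest part in control retinas. *Wfdc1*, the next largest there, overlapped between the groups (log2 fold change -0.43 ± 0.258). It was at 21.4 to 32.7 TPM in control and at 13.8 to 27.1 TPM in *Yap* cKO retinas. Of the 8 markers, 7 were tested (all but *Msx1*), and *Optc* and *Gja1*, which encodes the gap junction protein connexin 43, fell (adjusted p = 0.00243 and 0.0187, edgeR), where 0.989% of all genes tested fell. In this list 6 genes had an unadjusted p under 0.05, and 3 passed by DESeq2 and 5 by the likelihood ratio test. Over all 16575 genes tested, 892 passed by DESeq2 and 1025 by the likelihood ratio test. No share of all genes was worked out for the unadjusted p, so nothing is read from those counts here or below. *Optc* was at 50.2, 45.6 and 48.2 TPM in control and at 2.86, 8.39 and 2.44 TPM in *Yap* cKO retinas. *Zic1* had a log2 fold change of only -0.46 ± 0.125 (adjusted p = 0.0997). No marker of this list was listed at 0 in any retina.

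Melanin pigment markers followed a similar order. Their 6 genes summed to 71.2 to 78.5 TPM in control and to 17.1, 48.4 and 26.6 TPM in YR711, YR713 and YR714, and 1 of 6, *Pmel*, fell (adjusted p = 0.0347, edgeR). In this list 4 genes had an unadjusted p under 0.05, and 2 passed by DESeq2 and 4 by the likelihood ratio test. Of 7 fibroblast markers, 4 were tested, and *Ogn* and *Col1a2* fell (adjusted p = 0.00123 and 0.00236), and the list summed to 14.8 to 16.4 TPM in control and 3.06 to 4.60 TPM in *Yap* cKO retinas. *Col1a1* (log2 fold change 0.076 ± 0.315) and *Col3a1* (-0.0042 ± 0.397), the other tested markers, did not pass, and *Ogn* and *Col1a2* carried most of the sum. The defining fibroblast gene *Lum* was listed at 0 in 4 of the 6 retinas, and *Dpt* in 1. The 5 retinal pigment epithelium markers summed to 564 to 611 TPM in control and to 175, 324 and 595 TPM in YR711, YR713 and YR714, and 0 of 5 passed (1 at an unadjusted p under 0.05, 0 by DESeq2 and 0 by the likelihood ratio test). YR714 had a sum of retinal pigment epithelium markers within the control range and the lowest *Ltbp2*, *Mfap4* and *Fbn1* levels. The part of these cells in the microfibril gene levels was not tested.

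The 9 Müller glia markers summed to 5486 to 5877 TPM in control and to 5054 to 5681 TPM in *Yap* cKO retinas, and 0 of 9 passed (4 at an unadjusted p under 0.05, 1 by DESeq2 and 1 by the likelihood ratio test). Among *Yap* cKO retinas only YR711 reached the control range of this sum. All *Yap* cKO retinas were below all controls for *Rlbp1* (-0.36 ± 0.0753, adjusted p = 0.054, edgeR) and above them for *Kcnj10* (0.28 ± 0.0865, adjusted p = 0.126). Pericyte and smooth muscle markers, from cells that also make microfibrils, summed to 103 to 110 TPM in control and to 91.7 to 119 TPM in *Yap* cKO retinas. Summed levels also overlapped for endothelial cells (191 to 202 and 168 to 222 TPM), astrocytes (40.7 to 60.8 and 36.5 to 49.0 TPM), rods (50740 to 54140 and 47760 to 51920 TPM) and retinal ganglion cells (1850 to 2124 and 1883 to 2146 TPM). The lens list summed to 2.51 to 18.2 TPM in control and to 0.939 to 3.99 TPM in *Yap* cKO retinas, with 3 of 6 genes at 0 in a retina, and these ranges overlapped. Its 2 tested genes, *Cryaa* (-2.30 ± 0.949, adjusted p = 0.206) and *Bfsp1* (-0.91 ± 0.344, adjusted p = 0.183), both had an unadjusted p under 0.05, and neither passed by any of the 3 tests. The part of lens cells in the microfibril gene levels was not tested.

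**Figure D4:**
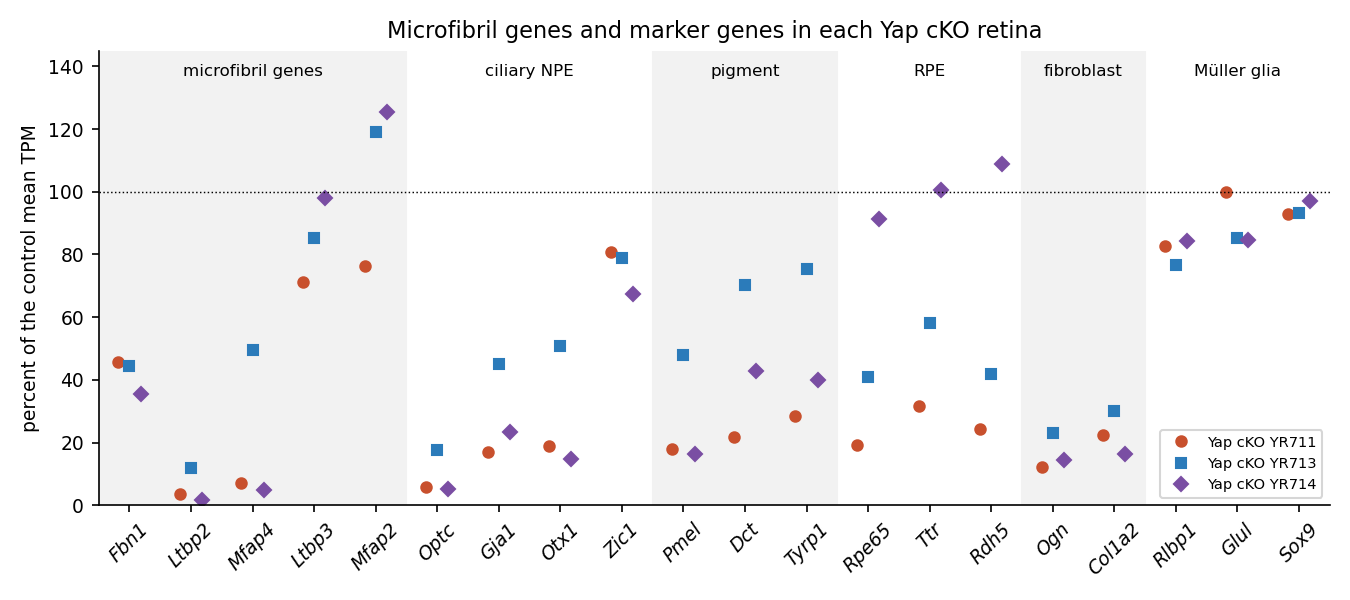
Level of 5 microfibril genes and of selected marker genes in each *Yap* cKO retina, in percent of the control mean TPM (dotted line at 100). Other genes of the marker lists are not shown. Among those of the lists drawn here, *Aqp1*, *Wfdc1*, *Lrat*, *Best1*, *Col1a1* and *Col3a1* were each above 100% in some *Yap* cKO retina. So were the Müller glia markers *Kcnj10*, *Slc1a3*, *Dkk3* and *Vim*. *Mfap4*, *Gja1*, *Pmel* and *Dct* are highest in YR713, *Rpe65*, *Ttr* and *Rdh5* are near 100% only in YR714 among these retinas, and *Fbn1* is alike in all 3.

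The comparison then turned to the pathways around the microfibril, whose genes were listed by function. These lists, too, were drawn up with earlier results of these data known. Their counts are therefore a description and not independent evidence. Of all genes tested, 0.989% fell and 0.501% rose at an adjusted p of at most 0.05, the threshold used for these lists. By DESeq2 892 of the 16575 genes tested passed it, and by the likelihood ratio test 1025. Among elastic fibre partners, 4 of 10 tested genes fell and 0 rose, with a median log2 fold change of -0.29. By DESeq2 and by the likelihood ratio test 6 passed, with *Loxl1* lower and *Eln* higher added. The 4 genes were *Fbln1* (-3.15 ± 0.511, adjusted p = 0.0231), *Fbln5* (-0.83 ± 0.161, 0.0421), *Efemp2* (-0.61 ± 0.103, 0.0266) and *Efemp1* (-0.58 ± 0.0754, 0.00789). Fibulin-5 and EFEMP2 (fibulin-4) bring elastin and its crosslinking enzymes to microfibrils. *Fbln1* was at 53.5, 36.0 and 41.9 TPM in control and at 2.29, 10.7 and 2.01 TPM in *Yap* cKO retinas, with YR713 again the highest. *Efemp1* was at 129, 122 and 127 TPM in control and at 90.4, 88.8 and 84.0 TPM in *Yap* cKO retinas, and the crosslinking enzyme gene *Loxl1* had a log2 fold change of -0.90 ± 0.230 (adjusted p = 0.0885). The elastin gene, *Eln*, had a log2 fold change of 0.59 ± 0.176 (adjusted p = 0.12). The count of 4 changed when 1 retina was left out. It was 1 without control YR612, 0 without control YR615, 2 without YR711 and 1 without YR713. Over all genes, 247 passed in the main fit, and 56, 49, 156 and 93 in these fits. Without control YR613 or without YR714 the count was 5, and 1490 and 992 of all genes passed. *Lox* was not tested.

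Several ADAMTS and ADAMTSL proteins bind fibrillin, and some of them help microfibrils to form. Of 10 genes tested, 0 passed (3 at an unadjusted p under 0.05, 1 by DESeq2 and 1 by the likelihood ratio test), with a median log2 fold change of 0.014. *Thsd4*, which encodes ADAMTSL6, had the smallest adjusted p. It was at 1.56 to 1.91 TPM in control and at 2.33 to 3.05 TPM in *Yap* cKO retinas, with a log2 fold change of 0.57 ± 0.131 (adjusted p = 0.0673). It was chosen after its values were seen.

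TGF-beta ligands and the proteins that free them from the latent complex also gave 0 of 12 tested genes past the threshold (3 at an unadjusted p under 0.05, 1 by DESeq2 and 1 by the likelihood ratio test). *Tgfb2*, the most abundant ligand, was at 53.4, 61.4 and 56.9 TPM in control and at 76.0, 74.9 and 60.2 TPM in *Yap* cKO retinas, and the groups overlapped. TGF-beta receptors, SMADs and responsive genes gave 0 of 11 (2 at an unadjusted p under 0.05, 0 by DESeq2 and 0 by the likelihood ratio test). The responsive gene *Tgfbi* had a log2 fold change of -0.28 ± 0.215 (adjusted p = 0.466).

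Of the BMP and GDF ligands that fibrillin can bind, 1 of 5 tested genes fell. *Bmp2* was at 3.33, 2.95 and 3.92 TPM in control and at 0.837, 1.58 and 1.400 TPM in *Yap* cKO retinas (log2 fold change -1.45 ± 0.240, adjusted p = 0.0246). With YR612, YR615 or YR713 left out, *Bmp2* no longer passed. *Bmp4* had a log2 fold change of -1.18 ± 0.363 (adjusted p = 0.127).

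**Figure D5:**
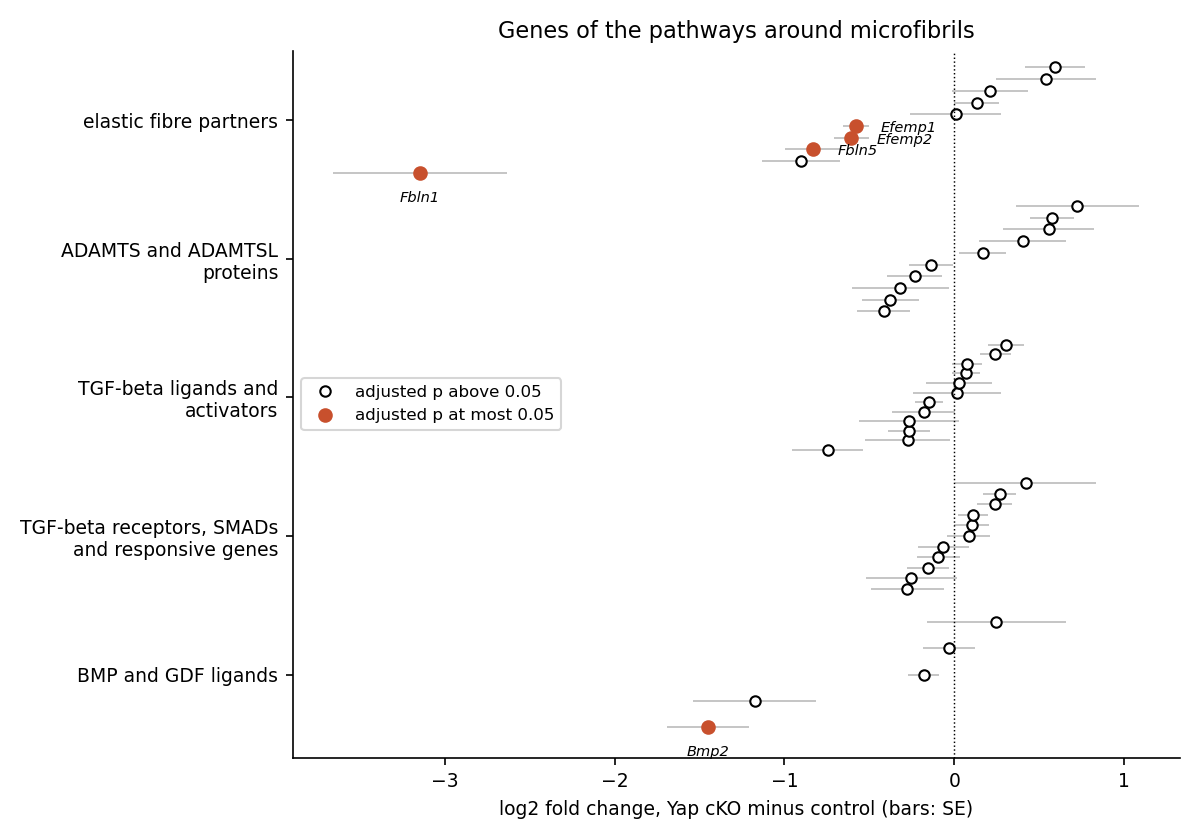
Log2 fold change (*Yap* cKO minus control) of the tested genes of 5 pathway lists, with bars for SE. Filled points passed an adjusted p of 0.05. *Fbln1*, *Fbln5*, *Efemp1*, *Efemp2* and *Bmp2* are filled and lie left of 0, and no gene of the ADAMTS or TGF-beta lists is filled.

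The chromosomal neighbours of the 9 genes were also compared. Of 18 neighbours, the nearest tested gene on each side, 0 passed an adjusted p of 0.05 (3 at an unadjusted p under 0.05, 0 by DESeq2 and 0 by the likelihood ratio test), with log2 fold changes from -0.34 to 0.42. *Ltbp2* lies 8124 bases from *Isca2*, whose log2 fold change was -0.0099 ± 0.1003, and 41616 bases from *Arel1* (0.21 ± 0.0988, adjusted p = 0.245). *Mfap4* overlaps the antisense gene *Mapk7*, whose mean level was 5.42 TPM in control retinas against 5.46 TPM in *Yap* cKO. *Fbn1* lies between *Dut* (-0.24 ± 0.0838, adjusted p = 0.159) and *Cep152* (-0.0092 ± 0.111).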

How the data were processed

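Stranded, paired-end libraries of polyadenylated RNA from 6 retinas were analysed. Per the labels, the authors aligned reads to GRCm38 with STAR 2.7.3a. Per the file headers, they counted fragments on exons with featureCounts 1.6.2 (strand setting 2, Ensembl release 98). The deposited values are counts per gene without normalization, beside exonic lengths. By strand counting, antisense genes are kept apart.

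TPM was computed from counts and lengths. Genes passing filterByExpr (16575) were normalized by TMM (factors 0.986 to 1.024) and tested with edgeR 4.0.16 in R 4.3.3 (quasi-likelihood, *Yap* cKO against control, no covariate, Benjamini-Hochberg over all tested genes). The study's methods gave the criteria. Standard errors were derived from the F statistic. Counts of retinas in a group differed by more than sampling noise (chi-square per degree of freedom 10.1 to 23.2). This cannot show that they came from different animals, but the study's methods describe independent biological replicates. An exact permutation test of 3 against 3 retinas cannot go below 0.1. The fits were tried on simulated counts with equal dispersion for all genes and differences planted only in well-counted genes. That says little of low counts or of false calls in these data.

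The 9 genes and all lists were chosen with earlier results of these data known. The text names the 9 genes, list genes whose adjusted p did not exceed 0.05 (up to 6 a list), the 5 nearest profiles of *Ltbp2*, *Mfap4* and *Fbn1* (log2 CPM, prior count 2), chromosomal neighbours and *Yap1*, and any other gene was named after its values were seen. Alternatives were DESeq2 1.42.0 (size factors, Wald test), library size only, no filter, edgeR's likelihood ratio test, offsets corrected for gene length (loess, span 0.3), no TPM minimum, and each retina left out.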

Additional observations from a re-analysis of the deposited data

How the results depend on the processing

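*Fbn1* and *Ltbp2* were called, both lower in *Yap* cKO, under every alternative run: other size factors, library size only, no filter, DESeq2, the likelihood ratio test, length-corrected offsets, no TPM minimum and each retina left out. The number of microfibril genes called was 2 or 3, and the third was *Mfap4* (no filter, the likelihood ratio test, or without YR613, YR713 or YR714). *Fbn2* and *Ltbp1* missed the adjusted p of 0.05 in the main comparison and passed it, lower, with DESeq2, the likelihood ratio test, length-corrected offsets and no filter (*Fbn2* also without YR613), but stayed under 5 TPM. As the genes were chosen on this comparison, these calls are a description. Of 96 alternative log2 fold changes over 8 genes, 92 kept their direction. The exceptions were *Ltbp4* without YR613 (-0.077) and *Mfap2* without YR613 (-0.0375), YR713 (-0.036) or YR714 (-0.094). With 1 retina left out, *Ltbp4* ranged from -0.077 to 0.17 and *Mfap2* from -0.094 to 0.23.

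The pathway lists moved more. Without the filter, 2 ADAMTS and ADAMTSL genes, 3 TGF-beta ligand and activator genes and 2 BMP and GDF genes passed. With DESeq2 and with the likelihood ratio test these counts were 1, 1 and 2. Elastic fibre partners went from 4 to 6 in each of these 3 fits, with *Loxl1* lower and *Eln* higher added. Over the fits with 1 retina left out, the ADAMTS and ADAMTSL, TGF-beta ligand and activator, and BMP and GDF counts ranged from 0 to 2, from 0 to 1 and from 0 to 2. Elastic fibre partners ranged from 0 to 5. TGF-beta receptors, SMADs and responsive genes stayed at 0 in all fits. Over all genes, 247 passed the adjusted p threshold of these lists in the main fit. Without the filter 1865 of 30129 passed it, with DESeq2 892 and with the likelihood ratio test 1025. With 1 retina left out, 49 to 1490 passed it. Calls over all genes, which also need the fold change and TPM criteria, were 132 in the main fit and 369 without the filter. They were 263 with DESeq2, 291 with the likelihood ratio test and 38 to 516 with 1 retina left out. The cause of these moves was not tested. Low counts limit *Fbn2* and *Mfap5*, and 3 retinas per group limit all tests. No paired analysis was possible because the labels give no shared replicate numbers.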
